A study of Mus musculus with 6 samples.

Results

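2 kinds of Tcf1 mutant were set against each other in immature thymocytes of the mouse: cells meant to lack every Tcf1 protein, called Tcf1-deficient, and cells lacking the long isoforms only, called p45-deficient. The members are 4 of the 6 RNA sequencing libraries of the study, 2 per mutant, chosen by their sample titles, and the 2 libraries of wild-type controls are given beside them. All cells were sorted as DN3 thymocytes, with no CD4 or CD8, little CD44 and much CD25 at the surface. The Tcf1-deficient mice had the genotype Lck-cre+ Tcf1 fl/fl, in which a Cre recombinase under an Lck promoter, active in T-lineage cells, removes the floxed gene part. The p45-deficient mice had the genotype p45-/-, with no Cre named, so the loss of the short isoforms and the way in which the allele was made cannot be told apart. The sources used here give neither strain, age and sex nor the number of mice behind each library. If the 2 libraries of a group came from the same cells, the p-values measure technical spread only. Levels are given as CPM, the counts of a gene scaled to a common library size, and in sorted bulk cells fewer cells of a type and less RNA per cell cannot be told apart.

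Tcf1, the product of Tcf7, is a transcription factor of the HMG-box family and is needed at several steps of T cell development. Its long isoforms begin with a domain that binds beta-catenin, and the short isoforms, made from an internal promoter, lack that domain but keep the DNA-binding HMG box. DN3 cells are committed to the T lineage, rearrange the T cell receptor beta locus under Notch signals, and begin to divide quickly once a pre-T cell receptor has formed.

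The targeted gene was read first. Tcf7 stood at 979 and 976 CPM in Tcf1-deficient, at 2340 and 2414 CPM in p45-deficient and at 2088 and 1810 CPM in control cells. It fell in Tcf1-deficient against p45-deficient cells by 1.28 on the log2 scale (SE 0.11, adjusted p = 0.0031), and against control the log2 difference was -0.995 (SE 0.11, adjusted p = 0.076). Reads at Tcf7 were thus fewer in both libraries labelled Tcf1-deficient but far from absent. A count over the whole gene shows neither which exon was removed nor which isoform was made, so it does not measure how complete the loss of Tcf1 protein was. Lef1, the other lymphoid factor of the family, was 612 and 595 CPM in Tcf1-deficient, 969 and 1006 CPM in p45-deficient and 460 and 428 CPM in control cells. It fell against p45-deficient cells by 0.71 (SE 0.11, adjusted p = 0.012), and the Tcf1-deficient level lay between the other groups. The 2 remaining family members, Tcf7l1 (log2 difference 0.87, adjusted p = 0.36) and Tcf7l2 (1.21, adjusted p = 0.081), did not pass the test.

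**Figure D1:**
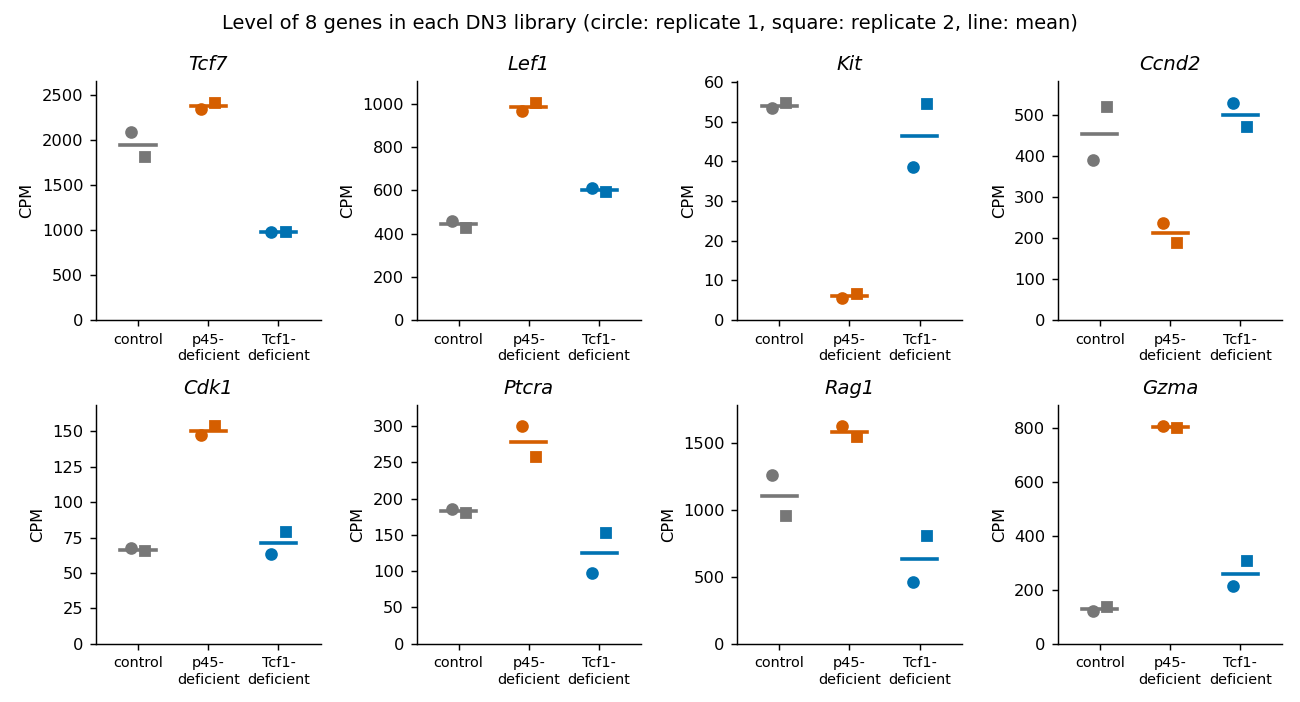
CPM of 8 genes (vertical axes, each from 0) in the control, p45-deficient and Tcf1-deficient libraries, with a circle for replicate 1, a square for replicate 2 and a line at the mean. For Tcf7 the Tcf1-deficient libraries (979 and 976 CPM) are lowest, whereas for Kit, Ccnd2 and Cdk1 the p45-deficient libraries are the ones that stand apart.

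Of 12939 genes tested, 1348 (10.4%) differed between the mutants at an adjusted p below 0.05 (edgeR's quasi-likelihood test with Benjamini-Hochberg adjustment). In Tcf1-deficient cells 654 were higher (5.05%) and 694 lower (5.36%), and 673 (5.2%) differed by at least 2-fold, of which 397 were higher and 276 lower. The higher genes made up 48.5% of the calls with TMM scaling and 60.6% (744 of 1227) when libraries were scaled by their totals. The number of calls rested on both p45-deficient libraries: without replicate 1 or 2 of that group it was 105 or 184. Without Tcf1-deficient replicate 1 or 2 it was 1365 or 3437, and without control replicate 1 or 2, which enter through the filter, the scaling and the shared estimate of spread, 664 or 650. All 1348 genes kept their direction in each of these fits. The libraries of the 2 mutants did not overlap in all 1348, so leaving out 1 library could hardly reverse a direction.

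For most genes that separated the mutants, control cells sat with the Tcf1-deficient cells. On a scale where 0 is the p45-deficient and 1 the Tcf1-deficient log2 level, the median control position over the 1348 genes was 1.0. Control was nearer to Tcf1-deficient cells for 1257 of them (93.2%) and nearer to p45-deficient cells for 91. Over all 12939 tested genes, without regard to any call, the share nearer to Tcf1-deficient cells was 70.6%. Both control libraries, each taken alone, fell on the Tcf1-deficient side for 1198 of the called genes. The share ran from 89.8% to 94.7% over the same 1348 genes when any single library was left out of the means. These genes were called with all 6 libraries and were not called anew. Control lay beyond the Tcf1-deficient level for 678 genes, between the mutants for 663 and beyond the p45-deficient level for 7.

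**Figure D2:**
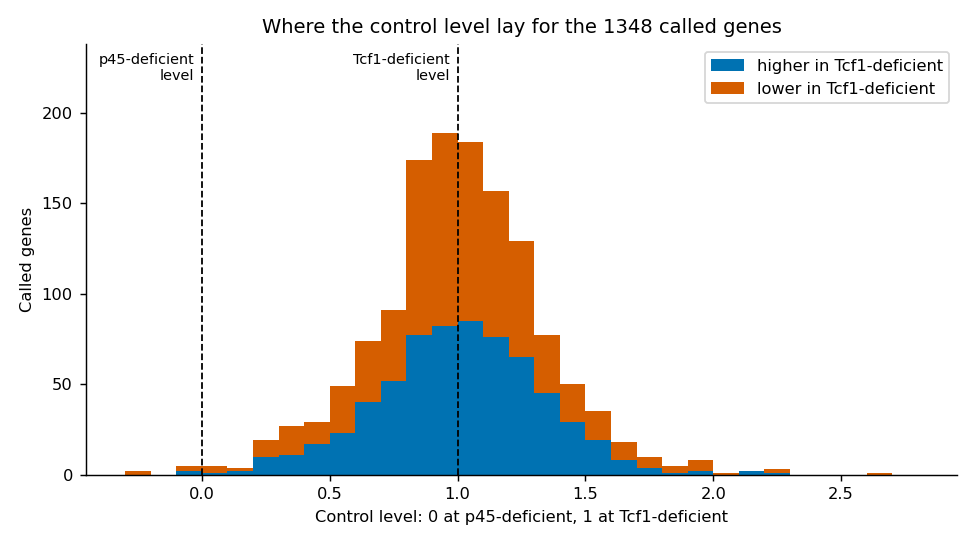
Number of called genes (vertical axis) by the position of the control level (horizontal axis, 0 at the p45-deficient and 1 at the Tcf1-deficient level), with genes higher in Tcf1-deficient cells in blue and lower ones in orange. The distribution peaks at the Tcf1-deficient level, with its median at 1.0.

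Genes of mitosis were lower in Tcf1-deficient than in p45-deficient cells. Of 59 tested genes for the mitotic kinases, spindle and centromere, 43 were lower and 0 higher (72.9% called, against 10.4% of all genes), with a median log2 difference of -0.84 beside -0.013 for all genes. Anln, which encodes the contractile-ring protein anillin, was 38.1 and 42.7 CPM in Tcf1-deficient, 118 and 114 CPM in p45-deficient and 49.3 and 41.5 CPM in control cells, and fell by 1.52 (SE 0.14, adjusted p = 0.0031). Spc25, a subunit of the NDC80 complex that ties kinetochores to the spindle, was 23.7 and 30.4 against 72.6 and 66.7 CPM, with control at 29.0 and 26.2 CPM, and fell by 1.37 (SE 0.16, adjusted p = 0.0060). Cdk1, the kinase that drives entry into mitosis, was 63.2 and 78.8 against 147 and 153 CPM, with control at 67.4 and 65.4 CPM, and fell by 1.08 (SE 0.14, adjusted p = 0.0080). The 2 mutants did not overlap in these genes, as in all 1348 called genes. In each of Anln, Spc25 and Cdk1 control lay at or close to the Tcf1-deficient level. Birc5, the chromosomal passenger protein survivin, fell by 0.96 (SE 0.13, adjusted p = 0.0088). For all 43 called members control was nearer to the Tcf1-deficient cells, and for 37 it lay beyond them. The median library position, in log2 units around each gene's mean, was 0.62 and 0.61 in p45-deficient, -0.41 and -0.06 in Tcf1-deficient and -0.31 and -0.45 in control cells. The count of lower genes was 34 without Tcf1-deficient replicate 1 and 52 without replicate 2, 21 or 20 without control replicate 1 or 2, and 1 or 2 without p45-deficient replicate 1 or 2, while the median stayed between -1.01 and -0.60 in these fits.

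The promoters of the mitosis genes were searched for a short element. Promoters of many genes that peak in G2 and mitosis carry a cell cycle genes homology region, TTTGAA, close to the start site. RefSeq promoter windows (GRCm38.p6, 250 bases before to 50 after the start) were matched by symbol for 37 of the 43 called members, giving 41 promoters. TTTGAA occurred on either strand in 28 of the 41 (68.3%). Among the 16 tested members that were not called it occurred in 8 of 14 promoters (57.1%), among all tested genes in 12% of promoters, and over all 32851 windows in 17.9%. The motif was searched after the gene list had been seen to differ, and a match is a description of letters only. The 120 bases before the start of 4 called members are shown because the element lies in them, in capitals, on the gene's strand as TTTGAA or as its reverse complement TTCAAA. Cdk1 lies at chr10:69352913-69353032 (-), Kif11 at chr19:37376262-37376381 (+), Top2a at chr11:99024190-99024309 (-) and Ncapg at chr5:45669805-45669924 (+).
Cdk1: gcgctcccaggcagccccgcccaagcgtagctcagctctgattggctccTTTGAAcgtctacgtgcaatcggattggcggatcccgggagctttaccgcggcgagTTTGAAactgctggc
Kif11: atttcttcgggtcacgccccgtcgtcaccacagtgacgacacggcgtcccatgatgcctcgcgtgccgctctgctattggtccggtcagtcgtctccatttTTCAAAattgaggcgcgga
Top2a: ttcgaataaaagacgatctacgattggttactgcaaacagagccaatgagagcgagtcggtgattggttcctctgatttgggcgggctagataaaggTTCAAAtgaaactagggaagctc
Ncapg: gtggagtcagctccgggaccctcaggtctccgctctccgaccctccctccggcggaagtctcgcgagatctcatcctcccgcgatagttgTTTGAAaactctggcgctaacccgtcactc
Within the bases shown the element begins 71 and 15 bases before the start in Cdk1, 19 in Kif11, 23 in Top2a and 30 in Ncapg. The Top2a window holds a further TTTGAA that begins 179 bases before the start, outside the bases shown. Kif11, the spindle motor kinesin-5, was 180 and 218 CPM in Tcf1-deficient against 325 and 321 CPM in p45-deficient cells, and Top2a, topoisomerase II alpha, was 644 and 816 against 1321 and 1287 CPM. Ncapg, a condensin subunit, was 49.8 and 67.4 against 111 and 112 CPM. These 3 genes were picked after their values were known.

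The TCF motif CTTTGAT was looked for in the same windows. It shares the letters TTTGA with the other element, and it was found on either strand in 0 of 8 promoters of the 12 genes with the largest rises (6 matched) and in 0 of 15 promoters of the 12 with the largest falls (10 matched). Among all tested genes 2.54% of promoters held it, and over all windows 3.73%. No match says only that these letters are not in these windows.

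Of 50 tested DNA replication genes 16 were also lower in Tcf1-deficient cells and 0 higher (32% called, beside 10.4% of all genes). The list had a median log2 difference of -0.50. Gmnn, the licensing inhibitor geminin, was 62.2 and 66.5 CPM in Tcf1-deficient, 121 and 123 CPM in p45-deficient and 53.1 and 51.5 CPM in control cells, and fell by 0.92 (SE 0.11, adjusted p = 0.00685). Rpa3, a subunit of the single-strand binding complex, fell by 0.88 (SE 0.13), Tyms, thymidylate synthase, by 0.85 (SE 0.13) and Gins1, of the replicative helicase, by 0.95 (SE 0.15). For all 16 called members control was nearer to the Tcf1-deficient cells. The count was 9 without Tcf1-deficient replicate 1, 36 without replicate 2, 5 without either control library and 0 without either p45-deficient library, and 8 with libraries scaled by totals.

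Among 26 genes of the G1 phase, the D cyclins, their kinases and the CDK inhibitors, 2 were higher and 4 lower (23.1% called). Over all genes the share called was 10.4%. Ccnd2, cyclin D2, was 529 and 469 CPM in Tcf1-deficient, 237 and 187 CPM in p45-deficient and 390 and 518 CPM in control cells, and rose by 1.24 (SE 0.18, adjusted p = 0.012). Cdk6, a partner kinase of the D cyclins, was 227 and 339 against 158 and 166 CPM, with control at 392 and 376 CPM, and rose by 0.80 (SE 0.19, adjusted p = 0.040). So the cyclin D2 pair ran opposite to the S-phase and mitotic genes. The 4 lower genes act later in G1 or in S phase or restrain the cycle. E2f7, a repressor of E2F targets, was 5.54 and 8.91 against 32.6 and 39.5 CPM and fell by 2.32 (SE 0.26, adjusted p = 0.0053). The E cyclins Ccne1 and Ccne2 fell by 0.997 and 1.52 (SE 0.19 and 0.26), and Cdkn2c, the CDK4/6 inhibitor p18, fell by 0.97 (SE 0.16). In the Myc network 2 of 11 tested genes were called (18.2%, beside 10.4% of all genes). Mxd3, a Max partner linked to S phase, fell by 1.19 (SE 0.19, adjusted p = 0.016), and Mlxip rose by 0.61 (SE 0.12, adjusted p = 0.024).

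**Figure D3:**
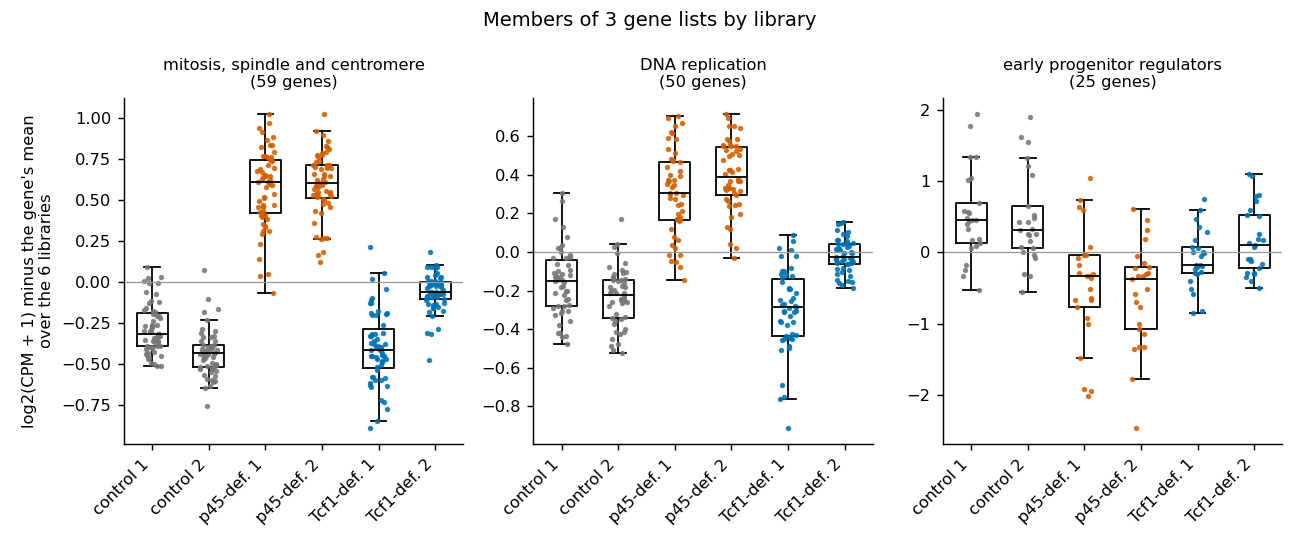
log2(CPM + 1) of each tested member minus its mean over the 6 libraries (vertical axes), for 59 mitosis, 50 DNA replication and 25 early progenitor genes. Points are genes and boxes give the quartiles, with whiskers to the farthest gene within 1.5 box heights. In the first 2 panels both p45-deficient libraries stand above the other 4.

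Some genes for the respiratory chain, the mitochondrial ribosome and the proteasome were lower in Tcf1-deficient cells. Of 78 tested respiratory chain genes, 21 were lower and 1 higher (28.2% called, beside 10.4% of all genes, median -0.41). Of 76 mitochondrial ribosomal protein genes 11 were lower and 0 higher (14.5%, median -0.41). Of 39 proteasome genes 8 were lower and 0 higher (20.5%, median -0.37). Of 84 cytosolic ribosomal protein genes 3 were lower and 0 higher (median -0.26), a share of 3.57% that is below the 5.36% of all genes called lower. Atp5h, a subunit of the ATP synthase, was 177 and 174 CPM in Tcf1-deficient, 295 and 277 CPM in p45-deficient and 146 and 169 CPM in control cells, and fell by 0.70 (SE 0.12, adjusted p = 0.018). Mrpl27 fell by 0.89 (SE 0.16, adjusted p = 0.020), and the proteasome core subunit Psma1 by 0.68 (SE 0.14, adjusted p = 0.028). Cox6b2 was the single respiratory chain gene that was higher, at 8.92 and 16.3 against 4.85 and 4.07 CPM (log2 difference 1.5, SE 0.33, adjusted p = 0.035).

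These counts moved with single libraries and with the scaling. Without Tcf1-deficient replicate 1 they were 6 respiratory, 6 mitochondrial ribosomal and 1 proteasome genes lower, with library totals 9, 4 and 2, and without either p45-deficient library 0 in each list. The median log2 difference was -0.12 in the quartile of genes with the shortest transcripts (median 1446 bases) and 0.07 in the longest quartile (median 6575 bases), where 12337 genes had a length. The median lengths were 1001 bases for respiratory chain, 1380.5 for mitochondrial ribosomal and 1591 for proteasome genes, against 3369 for mitosis and 2988 for replication genes. The part of transcript length in the results on the short-gene lists was not tested.

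Kit and 5 other regulators of early progenitors were higher in Tcf1-deficient than in p45-deficient cells. Of 25 tested members 6 were higher and 1 lower (28% called, beside 10.4% of all genes), with a median log2 difference of 0.90. Kit, the receptor for stem cell factor that is switched down as thymocytes commit, was 38.6 and 54.4 CPM in Tcf1-deficient, 5.55 and 6.65 CPM in p45-deficient and 53.4 and 54.8 CPM in control cells. It rose by 2.93 (SE 0.21, adjusted p = 0.0020), and the Tcf1-deficient and control libraries overlapped. Nfe2, a bZIP factor of the megakaryocyte lineage, was 13.9 and 22.3 against 4.70 and 3.30 CPM, with control at 13.7 and 11.8 CPM, and rose by 2.17 (SE 0.31, adjusted p = 0.012). Hoxa7, a homeobox factor of early progenitors, was 1.19 and 1.46 against 0.110 and 0.239 CPM, with control far above both mutants at 9.62 and 10.6 CPM. It rose against p45-deficient cells by 2.93 (SE 0.48, adjusted p = 0.016), and against control the log2 difference was -2.93 (adjusted p = 0.11).

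Bcl11a, a zinc-finger factor of progenitors and B cells, took the same middle place as Hoxa7. It was 4.75 and 8.57 CPM in Tcf1-deficient, 0.441 and 0 CPM in p45-deficient and 20.3 and 16 CPM in control cells, and rose by 4.76 (SE 0.83, adjusted p = 0.022). Cebpb, a bZIP factor of myeloid cells, rose by 2.68 (SE 0.46, adjusted p = 0.019). Hhex, a homeobox factor of progenitors, was 0.967 and 1.83 CPM in Tcf1-deficient cells and had 1 count over both p45-deficient libraries. The single member that fell was Gfi1b, a repressor of erythroid and megakaryocyte cells, at 0.308 and 0.666 against 2.90 and 2.59 CPM. Of this list, 8 members were higher and 0 lower without Tcf1-deficient replicate 1, 4 higher without either control library, and 2 higher without either p45-deficient library.

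Genes of the Notch pathway went both ways. Of 28 tested members 6 were higher and 5 lower in Tcf1-deficient cells (39.3% called, beside 10.4% of all genes). For all 11 control was nearer to the Tcf1-deficient level. Its position, with 0 at p45-deficient and 1 at Tcf1-deficient, ran from 0.51 in Ptcra to 2.63 in Dtx1. Among the higher ones was Hes1, a repressor switched on directly by Notch, at 126 and 195 CPM in Tcf1-deficient, 66.6 and 54.3 CPM in p45-deficient and 92.6 and 121 CPM in control cells. It rose by 1.41 (SE 0.24, adjusted p = 0.019). Dtx3, of the Deltex family, was 103 and 117 against 48.7 and 45.3 CPM, with control at 121 and 129 CPM, and rose by 1.23 (SE 0.12, adjusted p = 0.0039). The receptor gene Notch2, Dtx4, Hes5 and the coactivator Maml1 were the other 4 that rose.

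Other direct Notch targets ran the opposite way. Nrarp, a target that feeds back on Notch, was 10.1 and 15.2 against 42.2 and 29.4 CPM, with control at 11.2 and 12.2 CPM, and fell by 1.5 (SE 0.26, adjusted p = 0.019). Dtx1, a Notch target of immature T cells, was 271 and 327 CPM in Tcf1-deficient, 501 and 435 CPM in p45-deficient and 147 and 140 CPM in control cells. It fell against p45-deficient cells by 0.65 (SE 0.14, adjusted p = 0.033) and stood above control. Uaca fell by 1.28 (SE 0.14, adjusted p = 0.0051), and Heyl and Ptcra were the other 2 that fell. Notch1 itself did not pass the test (log2 difference 0.01, SE 0.20, adjusted p = 0.98), nor did Il2ra, the CD25 gene used in the sort (0.00, SE 0.35). Without p45-deficient replicate 1 or 2 the Notch list held 1 higher gene, with 1 or 2 lower.

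Ptcra encodes the invariant chain of the pre-T cell receptor. Of 5 pre-T cell receptor and CD3 genes it alone was called (20%, beside 10.4% of all genes). It was 97.3 and 153 CPM in Tcf1-deficient, 299 and 258 CPM in p45-deficient and 186 and 180 CPM in control cells. The mutants thus lay on either side of control, but neither passed the test against control. The adjusted p was 0.088 for p45-deficient and 0.61 for Tcf1-deficient cells. Between the mutants Ptcra fell by 1.15 (SE 0.21, adjusted p = 0.022). Rag1, a subunit of the recombinase, behaved alike, at 458 and 801 against 1621 and 1539 CPM, with control at 1255 and 951 CPM. It fell by 1.33 (SE 0.27, adjusted p = 0.032). Against control the adjusted p of Rag1 was 0.22 for p45-deficient and 0.61 for Tcf1-deficient cells. Of 19 genes of V(D)J recombination and end joining 3 were lower and 0 higher (15.8% called, beside 10.4% of all genes). Apart from Rag1 these were Xrcc6, the Ku70 end-binding protein (-0.78, SE 0.13), and Hmgb2 (-0.88, SE 0.11). Hmgb2 is a DNA-bending cofactor that is also raised in dividing cells. Cd3e, Cd3d and Cd3g did not pass the test, with log2 differences of 0.27, -0.15 and 0.15. Rag1 kept its call in 7 of the 14 alternative fits and Ptcra in 9.

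Genes of T-lineage identity were called in 2 of 3 lists. Of 20 commitment factors 2 were higher and 1 lower (15%, beside 10.4% of all genes): Nfatc1, a calcium-regulated factor, at 182 and 168 against 91.9 and 102 CPM with control at 168 and 165 CPM (log2 difference 0.85, SE 0.12, adjusted p = 0.0098), the progenitor factor Hhex, and Ets2, which fell by 0.68 (SE 0.12, adjusted p = 0.021). Gata3 (0.30, SE 0.11) and Bcl11b (0.25, SE 0.16) did not pass. Of 8 E proteins and Id inhibitors 0 were called with edgeR, 2 had an unadjusted p below 0.05 and DESeq2 called 0. Of 30 genes of proximal T cell receptor signalling 2 were higher and 0 lower (6.67%): Plcg1, phospholipase C gamma 1, rose by 0.68 (SE 0.14, adjusted p = 0.027), and Ubash3b by 3.08 (SE 0.60), with 16.3 and 4.99 against 1.21 and 1.29 CPM.

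Tle3, Tle1, Sox13 and Sox12 were among the called genes that work with Tcf1 or belong to its wider family. Of 16 genes for beta-catenin partners and the Groucho/TLE corepressors, which bind TCF proteins, 3 were higher and 0 lower (18.8% called). Tle3 was 538 and 540 CPM in Tcf1-deficient, 281 and 316 CPM in p45-deficient and 684 and 608 CPM in control cells and rose by 0.85 (SE 0.12, adjusted p = 0.011). Tle1 rose by 1.21 (SE 0.19, adjusted p = 0.015), and Jup, plakoglobin, a relative of beta-catenin, by 1.78 (SE 0.40, adjusted p = 0.038). Of 11 known Wnt targets only Zcchc12 was called, with a rise of 1.36 (SE 0.30, adjusted p = 0.036), a share of 9.09% beside 10.4% of all genes. Of 13 Sox, Tox and other HMG-box genes 2 were higher and 2 lower (30.8%). Sox13, a factor of gamma-delta T cells, was 105 and 112 against 60.6 and 66.2 CPM, with control at 77.1 and 66.0 CPM, and rose by 0.78 (SE 0.13, adjusted p = 0.017). Sox12 was 8.57 and 11.9 against 1.07 and 2.59 CPM with control at 37.9 and 20.8 CPM, and rose by 2.51 (SE 0.48, adjusted p = 0.026). Hmgb1 and Hmgb2, the chromatin HMG proteins, were the 2 that fell, and Hmgb1 kept its call in 4 of the 14 alternative fits.

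Lists of receptors at the cell surface were called at shares of 11.8% to 18.8%, beside 10.4% of all genes. Of 32 cytokine receptor genes 5 were higher and 1 lower: beside Kit these were Csf2ra, the alpha chain of the GM-CSF receptor (log2 difference 1.44, SE 0.19, adjusted p = 0.0091), Tgfbr3 (1.42, SE 0.21), Il17ra (0.60, SE 0.11) and Il10ra (0.99, SE 0.19), whereas Il9r was lower (-1.39, SE 0.29). Of 31 chemokine receptor and adhesion genes 3 were higher and 1 lower. The integrin chain Itga5 was 29.8 and 42.4 against 14.0 and 15.7 CPM and rose by 1.28 (SE 0.20, adjusted p = 0.014), while Itga6 was 78.4 and 76.7 against 164 and 141 CPM and fell by 0.98 (SE 0.12, adjusted p = 0.0076). Itga4 and Icam1 were the others that rose. Of 34 T cell surface receptors 1 was higher, Cd96, and 3 lower, Cd160, Slamf6 and Thy1. Thy1 kept its call in 2 of the 14 alternative fits and Cd160 in all 14. Cd160, an HVEM-binding receptor of cytotoxic cells, was 4.0 and 5.04 CPM in Tcf1-deficient, 24.8 and 25.3 CPM in p45-deficient and 3.38 and 2.86 CPM in control cells, and fell by 2.47 (SE 0.24, adjusted p = 0.0034).

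Of 15 cytotoxic granule genes Gzma was lower and Nkg7 higher, a share of 13.3% beside 10.4% of all genes. Gzma, granzyme A, was 215 and 306 CPM in Tcf1-deficient, 806 and 799 CPM in p45-deficient and 123 and 136 CPM in control cells, so that the Tcf1-deficient libraries stood above control but far under p45-deficient cells. It fell by 1.62 (SE 0.18, adjusted p = 0.0049). Nkg7, a granule membrane protein, rose by 1.36 (SE 0.24, adjusted p = 0.019). Of 12 gamma-delta genes 2 were higher, Sox13 and the scavenger receptor gene 5830411N06Rik (1.69, SE 0.18, adjusted p = 0.0045), and 2 lower, the related Cd163l1 (-1.5, SE 0.22, adjusted p = 0.013) and Blk (-0.66, SE 0.16), a share of 33.3%. Cd163l1 was 110 and 114 against 383 and 249 CPM, with control at 68.4 and 53 CPM. Blk kept its call in 3 of the 14 alternative fits. The genes 5830411N06Rik and Cd163l1 are relatives whose reads the counting may not separate fully. Among 15 genes listed as ERK feedback genes Spred1 and Spry2 were higher and Dusp10 and Phlda1 lower (26.7% called, beside 10.4% of all genes). Dusp10 was 46.6 and 51.2 against 99 and 108 CPM and fell by 1.08 (SE 0.13, adjusted p = 0.00685).

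**Figure D4:**
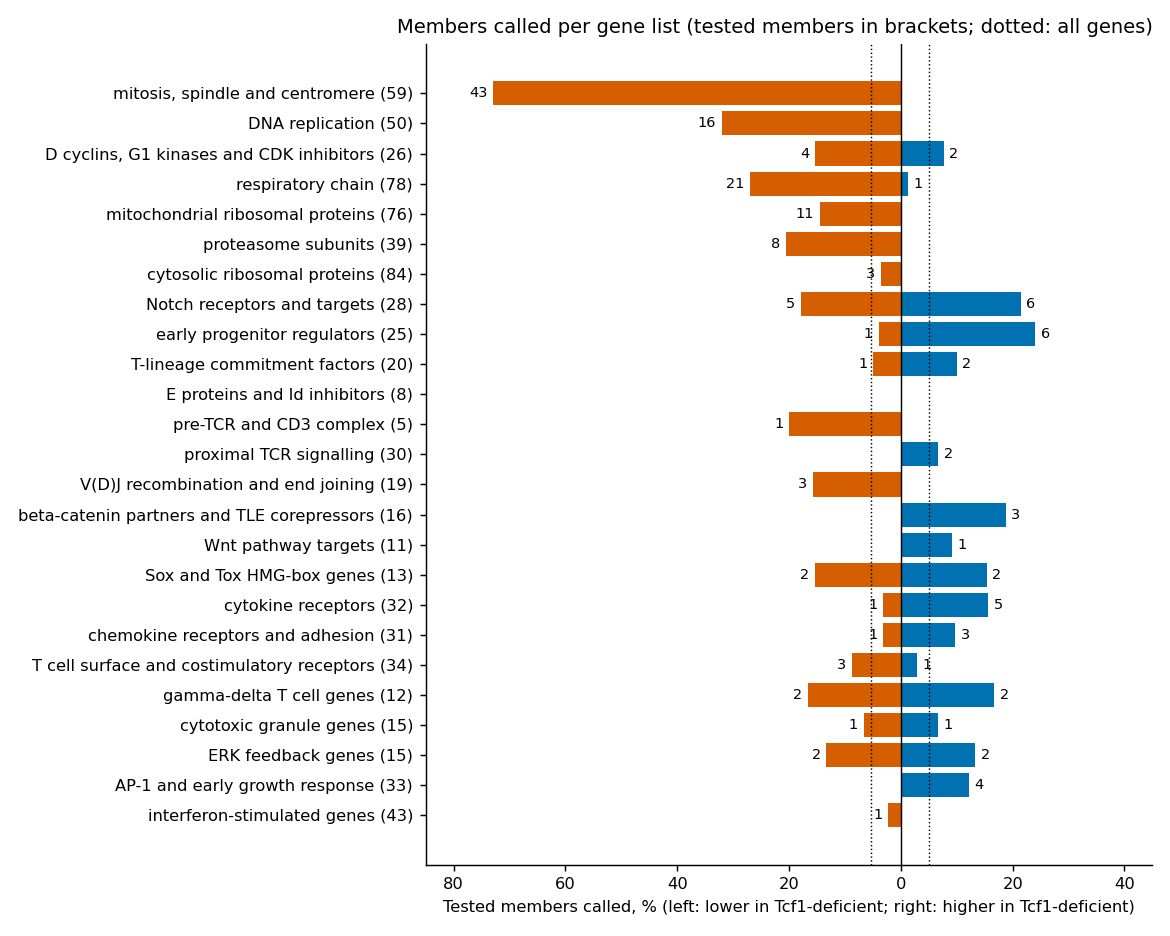
Share of tested members called per gene list, in percent, to the left for genes lower and to the right for genes higher in Tcf1-deficient cells, with the number of genes at each bar and the share over all genes as dotted lines. The longest bar is that of the mitosis genes, 43 of 59.

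Few anti-apoptotic genes and p53 targets were called. Bid, a pro-apoptotic BH3 protein, was lower (-1.07, SE 0.17, adjusted p = 0.014). Of 16 anti-apoptotic genes only Birc5 was called, which also belongs to the mitosis list, and Mcl1 did not pass (0.81, adjusted p = 0.060). Of 26 p53 targets only Ckap2, a spindle protein, was called (-0.91, SE 0.20). These shares of the anti-apoptotic and p53 lists, 6.25% and 3.85%, are below the 10.4% of all genes. Of 25 glycolysis genes Pfkfb3, Aldoc and Pdk1 were higher and Slc16a1 and Ldhb lower (20% called, beside 10.4% of all genes). Of 212 solute carriers 15 were higher and 8 lower (10.8%), close to the share of all genes.

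The largest differences were in genes nearly silent on one side. Among calls with a mean of 5 CPM or more in the higher mutant, the 12 with the largest rises and the 12 with the largest falls were set side by side. Control was nearer to the Tcf1-deficient cells in 8 of the 12 rises and in 11 of the 12 falls. Of called genes, 9 had at least 5 CPM in p45-deficient cells and at most 3 counts over both Tcf1-deficient libraries, and 2 showed the reverse, Afap1l1 and En2. Gm266 was 113 and 64.1 CPM in p45-deficient cells and at most 0.083 CPM in any other library. Pdlim4, a PDZ and LIM domain protein of the actin cytoskeleton, was 86.8 and 84.3 CPM in p45-deficient, 1.36 and 0.291 CPM in Tcf1-deficient and 0.725 and 0.191 CPM in control cells, and fell by 6.70 (SE 0.64, adjusted p = 0.0064). Both genes were thus high in the p45-deficient libraries alone. Fabp4, a fatty acid binding protein, was 15.0 and 3.78 CPM in p45-deficient cells with no count in Tcf1-deficient cells, at least 158-fold lower there, taking 3 counts over both libraries of a group as the floor. Sertad4 (23.5 and 14.3 CPM), Exoc3l4 (11.5 and 12.7 CPM) and Elovl3 (11.6 and 4.98 CPM) in p45-deficient cells had at most 0.132 CPM in each Tcf1-deficient library. Timp3, an inhibitor of metalloproteinases, rested on 1 library, with 9.48 and 0.814 CPM in p45-deficient cells.

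**Figure D5:**
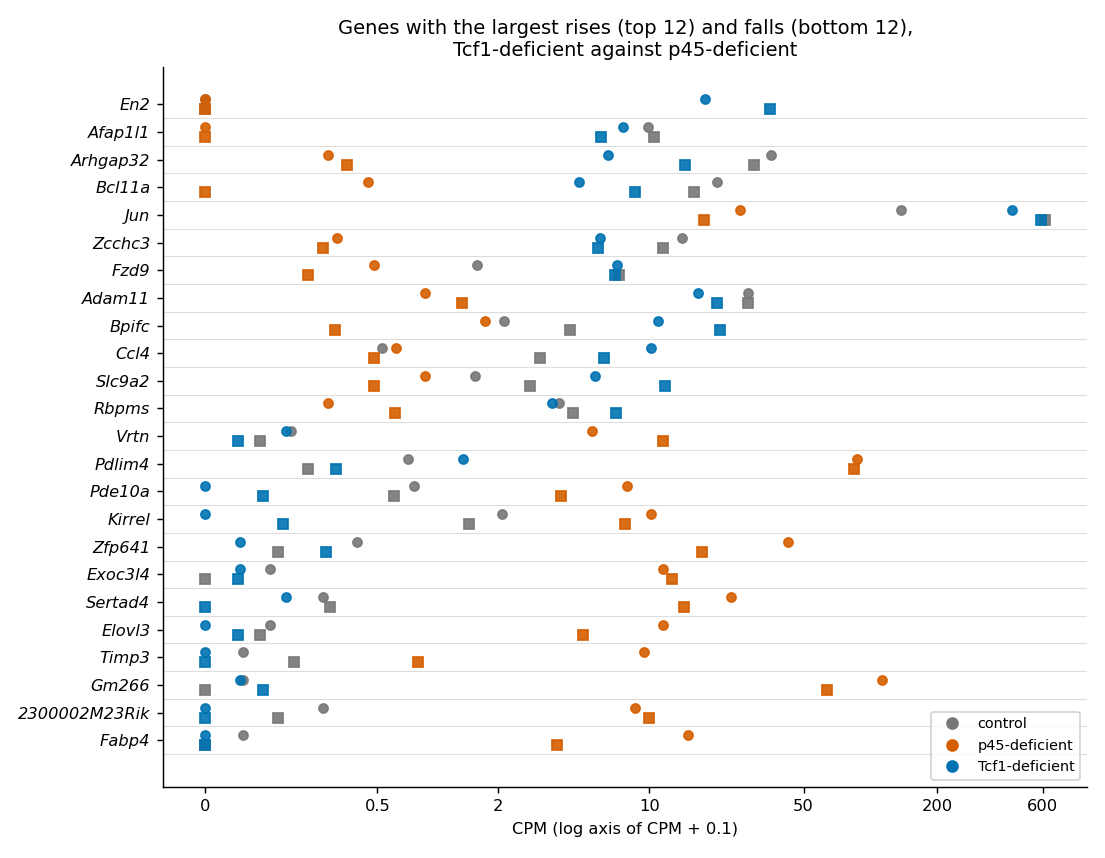
CPM (horizontal log axis of CPM + 0.1) of the 12 genes with the largest rises and the 12 with the largest falls, in control (grey), p45-deficient (orange) and Tcf1-deficient (blue) libraries, with circles for replicate 1 and squares for replicate 2. In 11 of the 12 falls the control libraries lie nearer to the Tcf1-deficient ones.

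Among the rises, Afap1l1, an actin filament binding protein, was 7.61 and 6.03 CPM in Tcf1-deficient and 9.81 and 10.5 CPM in control cells and had no count in p45-deficient cells, at least 109-fold higher by the same floor. Arhgap32, a GTPase-activating protein, was 6.51 and 14.5 CPM in Tcf1-deficient, 0.257 and 0.335 CPM in p45-deficient and 35.5 and 30.0 CPM in control cells, and rose by 5.14 (SE 0.49, adjusted p = 0.0037). Adam11 was 16.7 and 20.4 against 0.882 and 1.34 CPM, with control at 28.1 and 28 CPM, and rose by 4.07 (SE 0.26, adjusted p = 0.0013). In these genes the Tcf1-deficient level approached control from below without reaching it. Zcchc3 rose by 4.42 (SE 0.35, adjusted p = 0.0026) in the same manner, with 5.93 and 5.83 CPM under a control of 14.1 and 11.5 CPM. Ccl4, Slc9a2 and Bpifc instead stood higher in both Tcf1-deficient libraries than in all 4 others.

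En2, Nnt and Myzap were among the genes that separated the mutants in which the Tcf1-deficient libraries also lay outside the range of control. Other called genes did so too, Tcf7 and Gzma among them. None of En2, Nnt and Myzap passed the test against control (adjusted p = 0.076 for each). En2, a homeobox gene of brain development, was 17.9 and 35.3 CPM in Tcf1-deficient cells and had 0 counts in the other 4 libraries, at least 430-fold higher than in p45-deficient cells by the same floor. En2 sequence is used as a splice acceptor in some conditional gene-targeting vectors, and whether the floxed allele here carries one was not tested. Nnt, the mitochondrial transhydrogenase, which is partly deleted in the C57BL/6J strain, was 64.5 and 72.2 CPM in Tcf1-deficient, 159 and 156 CPM in p45-deficient and 152 and 153 CPM in control cells. It fell by 1.21 (SE 0.11, adjusted p = 0.0034), and the part of strain in the differences between groups was not tested. Myzap, named after its values were seen, was 11.0 and 9.86 against 34.1 and 40.8 CPM, with control at 37.7 and 31.6 CPM, and fell by 1.84 (SE 0.18, adjusted p = 0.0034).

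Of 33 AP-1 and early growth response genes, which also respond to cell handling, 4 were higher and 0 lower. This share of 12.1% is near the 10.4% of all genes. The median log2 difference was 2.15. Jun was 438 and 592 CPM in Tcf1-deficient and 25.8 and 17.8 CPM in p45-deficient cells, but 138 and 618 CPM in control. It rose by 4.56 (SE 0.84, adjusted p = 0.041), with Jund, Ier2 and Ier3. The summed level of the list was 5070 and 5931 CPM in Tcf1-deficient, 1532 and 1533 CPM in p45-deficient and 1839 and 5906 CPM in control libraries. The count was 22 without either control library, 1 without Tcf1-deficient replicate 1 and 0 without either p45-deficient library. Of 26 heat-shock and DnaJ genes 1 was called, Hsp90b1, a chaperone of the endoplasmic reticulum (-0.75, SE 0.12). The part of cell handling in the other results was not tested.

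One Tcf1-deficient library carried transcripts of more mature T cells. Cd4 was 372 CPM in replicate 1 and 46.1 CPM in replicate 2, Cd44, low by the sort, was 41.0 and 4.70 CPM, Foxp3, the factor of regulatory T cells, 34.3 and 2.25 CPM, and Gimap3 201 and 20.2 CPM. No p45-deficient or control library reached these levels of replicate 1. The summed level of 27 mature and regulatory T cell genes was 3403 and 2357 CPM in Tcf1-deficient, 2050 and 1840 CPM in p45-deficient and 1554 and 2177 CPM in control libraries. The median log2 difference of the 25 tested members was 1.22 with replicate 1 and -0.07 without it, and of the list only Nkg7 was called. The same turn was seen for 8 Gimap genes (0.90 and -0.33), 43 interferon-stimulated genes (0.56 and -0.31), 18 MHC class I genes (0.60 and -0.07), 34 T cell surface receptors (0.69 and -0.22), 31 chemokine receptor and adhesion genes (0.86 and -0.24) and 32 cytokine receptors (0.66 and -0.12). With Tcf1-deficient replicate 2 left out in place of replicate 1, 29 interferon-stimulated and 15 mature T cell genes were called higher. None of the Gimap genes was called with edgeR or DESeq2, and 0 had an unadjusted p below 0.05. The single interferon-stimulated gene called with all libraries went the other way: Ifi204 was 0.484 and 0.499 against 8.05 and 9.86 CPM and fell by 4.17 (SE 0.39, adjusted p = 0.0033). The part of such cells in the other results was not tested.

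The defining genes of DN3 cells, Il2ra, Notch1, Ptcra, Rag1, Cd3e and Thy1, were present in all 6 libraries. The CD8 gene Cd8b1 was 47.5 and 11.0 CPM in Tcf1-deficient, 89.7 and 77.5 CPM in p45-deficient and 48.7 and 22.9 CPM in control cells. Cd8a was 56.0 and 16.1, 110 and 85.4, and 76 and 37.7 CPM. Neither passed the test between the mutants (log2 difference -1.52 and -1.44, adjusted p = 0.25 and 0.22). The part of cell stage in the other results was not tested. Beside the 10.4% of all genes, the calls in marker lists of other cells were 0 of 21 dendritic cell genes and 0 of 12 thymic stromal genes with edgeR (3 and 2 at an unadjusted p below 0.05, 1 and 2 with DESeq2), 1 of 5 tested erythroid genes (20%; Epor, lower), 3 of 15 B-lineage genes (20%) and 2 of 20 natural killer and innate lymphoid genes (10%; Kit and Nkg7, higher). The called B-lineage genes were Cd72, higher, and Rag1 and Blk, lower. All 21 dendritic cell genes had a positive log2 difference, with a median of 1.06, which was 0.03 without Tcf1-deficient replicate 1. Summed levels of the myeloid list were 174 and 108 CPM in Tcf1-deficient, 147 and 112 CPM in p45-deficient and 129 and 141 CPM in control libraries. Those of the B-lineage list, which holds Rag1, were 616 and 910, 1740 and 1636, and 1419 and 1067 CPM. The dendritic cell list summed to 547 and 248, 258 and 228, and 419 and 355 CPM, and 8 of the 16 erythroid symbols had no count in any library. Library totals were 19640524 to 28107031 counts, and 3 counts over both libraries of a group correspond to 0.0624 to 0.0641 CPM. Rn45s, a ribosomal RNA gene, took 0.482% to 2.52% of counts. A principal component analysis separated both p45-deficient libraries from the rest on its first axis (51.5% of variance) and Tcf1-deficient replicate 1 on its second (24.7%).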

How the data were processed

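RNA of sorted DN3 thymocytes was sequenced in 6 libraries, 2 per genotype. Per the submitters' processing notes the genome build was mm9 and the tools were featureCounts 1.5.0-p3, DESeq2 3.4 and TopHat2, whose version is not given in the sources used here. The authors deposited raw counts of reads per gene symbol, as whole numbers. The sources used here name no annotation and no strand setting, so that reads of overlapping, antisense or near-identical genes may not be separated. The tests on 24015 symbols used edgeR 4.0.16 under R 4.3.3: filterByExpr, TMM scaling, 1 mean per group over all 6 libraries, robust quasi-likelihood F test, two-sided, Benjamini-Hochberg at 0.05 over 12939 genes. SEs come from the F statistic, with 3 residual degrees of freedom. The 2 libraries of a group differed by more than counting noise (chi-square per degree of freedom 9.79 to 73.1), and each was used as 1 replicate. Such a spread does not show whether they came from separate mice.

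The comparison and the 47 gene lists were chosen with earlier results of these data known. Named genes are the TCF and LEF factors, the 12 largest rises and falls among called genes of at least 5 CPM in the higher mutant whose libraries do not overlap, the 4 (or fewer) smallest p per list, and every called member of a list with 5 or fewer. Other genes named, such as single members against the direction of their list, were picked after their values were seen. Some results that this rule would name are not reported here. Lists are described by counts and medians, with no set test. Control position used log2 CPM with a prior count of 2. Alternatives were the replicate number as a block, DESeq2 1.42.0, other filters and scalings, the 4 mutant libraries alone and leaving out each library. The fit was checked on simulated counts. Promoter windows come from RefSeq (GRCm38.p6), and transcript lengths from GENCODE, both of another build than the counts and used by symbol.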

Additional observations from a re-analysis of the deposited data

How the results depend on the processing

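The number of genes called, 1348, moved by over 1.5 times under some alternatives. DESeq2 called 2440 (1319 higher, 1121 lower, 1013 of them at least 2-fold), and the fit on the 4 mutant libraries alone called 488 (293 higher, 195 lower, 364 at least 2-fold), of which 442 were among the 1348. The causes were not tested, beyond fewer libraries in the second. Leaving out 1 library gave 105 to 3437 calls in all, 53 to 1647 higher, 52 to 1790 lower and 105 to 1494 at least 2-fold. The replicate numbers carry no stated pairing, and deviations of same-numbered libraries from their group means correlated at -0.014 to -0.050. With the replicate number as a block 920 genes were called (466 higher, 454 lower), 886 of them among the 1348. Without a filter 1647 genes were called (947 higher, 700 lower), with at least 1 CPM in 2 libraries 1324 (789 higher, 535 lower), with upper-quartile scaling 1218 and with DESeq2 size factors in edgeR 1241. Tcf7 kept its fall and its call in all 14 alternatives, with log2 differences from -1.31 to -1.22. Of 123 named called genes 0 changed direction, and 122 kept their call with DESeq2, 99 with the block, 71 in the 4-library fit, 98 and 117 without Tcf1-deficient replicate 1 or 2, and 25 and 34 without p45-deficient replicate 1 or 2. A change of direction was unlikely beforehand, because the mutants' libraries did not overlap in any of the 1348 called genes. The share of called genes whose control level was nearer to Tcf1-deficient cells was 93.1% with a prior count of 0.5. Leaving out 1 library, added after the data had been seen, gave 89.8% to 94.7% over the same 1348 genes, which were not called anew. Groups of 2 allow no check for outlying libraries, and 0 counts in a group allow up to 3 counts over both of its libraries, by counting error only.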
